A study of Mus musculus with 2 samples.

Results

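The coagulation and fibrinolysis genes described here are *Vwf*, *Thbd*, *Procr*, *Tfpi*, *Plat*, *F8* and *F2r*, chosen by name as endothelial genes that regulate clotting. All 7 had a row in both count tables, out of 19845 genes with a row in both. Retinal endothelial cells came from C57BL/6 wild-type mice of postnatal day 6 (P6), when the retinal plexus is still spreading, and postnatal day 15 (P15), when arteries and veins have matured. Cells of either age were sorted as CD31+ and CD45-, which keeps endothelial cells and removes leukocytes, and were sequenced as 1 droplet library of 10x barcodes per age. The study's methods give equal use of both sexes, and the number of mice in each library was not given in the sources used here. With 1 library an age there was no test between ages, and age and library cannot be told apart. All intervals are at the 95% level and cover counting error only.

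Endothelium keeps blood fluid by holding both sides of the clotting cascade at its surface. Von Willebrand factor (*Vwf*), stored in Weibel-Palade bodies, tethers platelets and carries factor VIII (*F8*). Thrombomodulin (*Thbd*) binds thrombin and turns it toward protein C, which the endothelial protein C receptor (*Procr*) presents to it. Tissue factor pathway inhibitor (*Tfpi*) blocks the start of the cascade, and tissue plasminogen activator (*Plat*) makes plasmin, which dissolves fibrin. The thrombin receptor PAR1 (*F2r*) signals to the endothelial cell when thrombin cleaves it.

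The libraries held 1984 barcodes at P6 and 2141 at P15. Cells were kept by the study's exclusion criteria as read here: 200 to 3500 genes, at most 5% mitochondrial UMIs (unique molecular identifiers, 1 per captured transcript) and no UMI of *Cd63*, *Hbb-bt* or *Neurod1*. By these, 1424 and 1644 cells passed, with a median of 4986 and 4215 UMIs. The upper limit is stated for RNA counts, without naming genes or UMIs. Cells with a published label held up to 4252 and 4256 genes, so a limit of 3500 genes was not the one behind the labels. Of the labelled cells, 1399 of 1560 at P6 and 409 of 438 at P15 passed here. All 8 endothelial markers were found in the passing cells of both libraries. The summed pericyte markers stood at 11.4 UMIs per 1000000 UMIs (CPM) at P6 and 277 CPM at P15, and 7 immediate early genes (*Fos*, *Fosb*, *Jun*, *Junb*, *Egr1*, *Atf3*, *Ier2*) at 747 and 2617 CPM. Summed endothelial markers had 9831 and 15273 CPM, Mueller glia and astrocyte markers 369 and 1227 CPM, and erythroid markers 22.6 and 173 CPM. Platelet and megakaryocyte markers were lower at P15, at 47.3 and 33.4 CPM. The libraries shared 7 barcodes, of which 2 passed in both. Published labels, at hand for those 1560 and 438 cells, name 9 clusters: Venous, Cap-Venous, Capillary, Cap-Arterial, Arterial, Tip, Stalk, Primitive and Proliferative. They were made from the expression of the same cells, so a cluster against the rest is a description. A nearest-neighbour prediction that used none of the 7 genes named the same cluster for 77.3% and 81.3% of these cells and was applied to the other passing cells.

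Between the ages, *Thbd*, *Plat* and *Vwf* stood higher at P15, and *F2r*, *Procr* and *Tfpi* stood lower. *Thbd* had 47.9 CPM at P6 and 114 CPM at P15, a ratio of 2.39 (interval 2.11 to 2.71). *Plat* had 178 and 310 CPM, and *Vwf* 145 and 229 CPM. On the other side, *F2r* had 52.3 and 26.4 CPM, with a ratio of 0.506 (0.424 to 0.602). *Procr* had 56.7 and 43.0 CPM, and *Tfpi* had 138 and 111 CPM. Thus the receptor pair of the protein C pathway differed in opposite directions. Of the 6 members with at least 50 UMIs, 1 was at least 2-fold higher at P15 and 0 at least 2-fold lower, where 7.24% and 5.79% of 10977 genes were. The median gene stood 1.09 times higher at P15, and with that shift taken out *F2r* passed the limit too, at a ratio of 0.463. Without the upper limit on genes (1677 and 1792 cells) its ratio was 0.490, and that of *Vwf* 1.80 in place of 1.58. The same scaling turned the calls over all genes from 55.6% higher to 44.6% higher. With every cell thinned to 3000 UMIs, *Thbd* was found in 12.1% of P6 cells (10.4 to 14.1) and 27.7% of P15 cells (25.1 to 30.4). *F2r* was found in 12.5% (10.7 to 14.5) and 7.31% (5.88 to 8.96). Without thinning, these shares were 20.01% and 34.4% for *Thbd* and 20.7% and 9.55% for *F2r*. Thinning kept 1245 P6 and 1163 P15 cells and left out 179 and 481 that were too shallow.

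**Figure D1:**
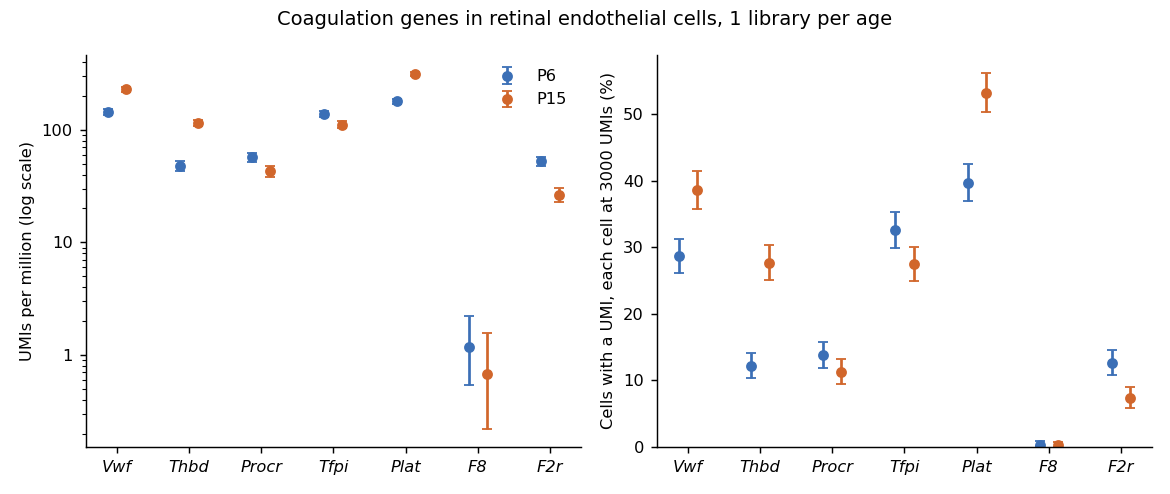
Level (left, CPM, log axis) and share of cells with a UMI after thinning each cell to 3000 UMIs (right, percent) for the 7 genes in passing cells, with 1 point per library and 95% counting intervals. *Thbd*, *Plat* and *Vwf* sit higher at P15, while *F2r* sits lower, from 52.3 to 26.4 CPM.

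*Vwf* (GRCm38, chr6:125546774-125686679, plus strand) was unevenly spread over the vascular tree. At P6 it was highest in Capillary cells, at 354 CPM (305 to 409) from 149 cells, against 122 CPM in the other labelled cells, and in Arterial cells, at 268 CPM. Tip cells, the migrating cells at the front of sprouts, had 190 CPM and Cap-Arterial cells 170 CPM. Venous cells had 134 CPM and Cap-Venous cells 106 CPM, so at P6 the venous side did not lead. The lowest levels were in Primitive cells, at 81.7 CPM, and Proliferative cells, at 89.6 CPM. At P15 Capillary cells had 577 CPM and Tip cells 426 CPM, whereas Cap-Arterial cells had 76.0 CPM. The 2 P15 Venous cells with a published label had 0 UMIs. With predicted labels 9 P15 Venous cells had 349 CPM, from 12 UMIs, which was 2.61 times the P6 level (1.24 to 5.11). Capillary and Tip cells had 694 and 458 CPM with those labels, so the P15 venous level rests on few cells. With published labels *Vwf* was the only member at least 2-fold higher in Capillary cells at either age, where 8.16% of all genes were at P6 and 7.59% at P15. *Thbd* in P15 Capillary cells had 151 CPM with published labels and 220 CPM with predicted ones. Capillary cells were shallow, with a median of 3204 UMIs at P6 and 2269 at P15. In those deep enough to thin, *Vwf* was still 2.46 times the level of the other P6 cells.

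Within clusters, *Vwf* was higher at P15 beyond the counting interval in 5 of 8 clusters compared and lower in 1. It was 2.24 times higher in Tip cells (1.77 to 2.81), 1.69 times in Cap-Venous cells (1.36 to 2.08) and 1.63 times in Capillary cells (1.20 to 2.19). In Cap-Arterial cells the ratio was 0.447 (0.275 to 0.698), from 142 UMIs in 162 P6 cells and 23 UMIs in 68 P15 cells. Cap-Arterial cells thus went from 1.29 times the other labelled cells at P6 (1.08 to 1.54) to 0.332 times at P15 (0.208 to 0.506). With predicted labels for the other passing cells the Cap-Arterial ratio between ages was 0.689 (0.544 to 0.875), from 289 P15 cells. Arterial cells had 268 CPM at P6 and 143 CPM at P15, from 53 UMIs and 7, an interval that includes no difference (ratio 0.532, 0.204 to 1.17).

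**Figure D2:**
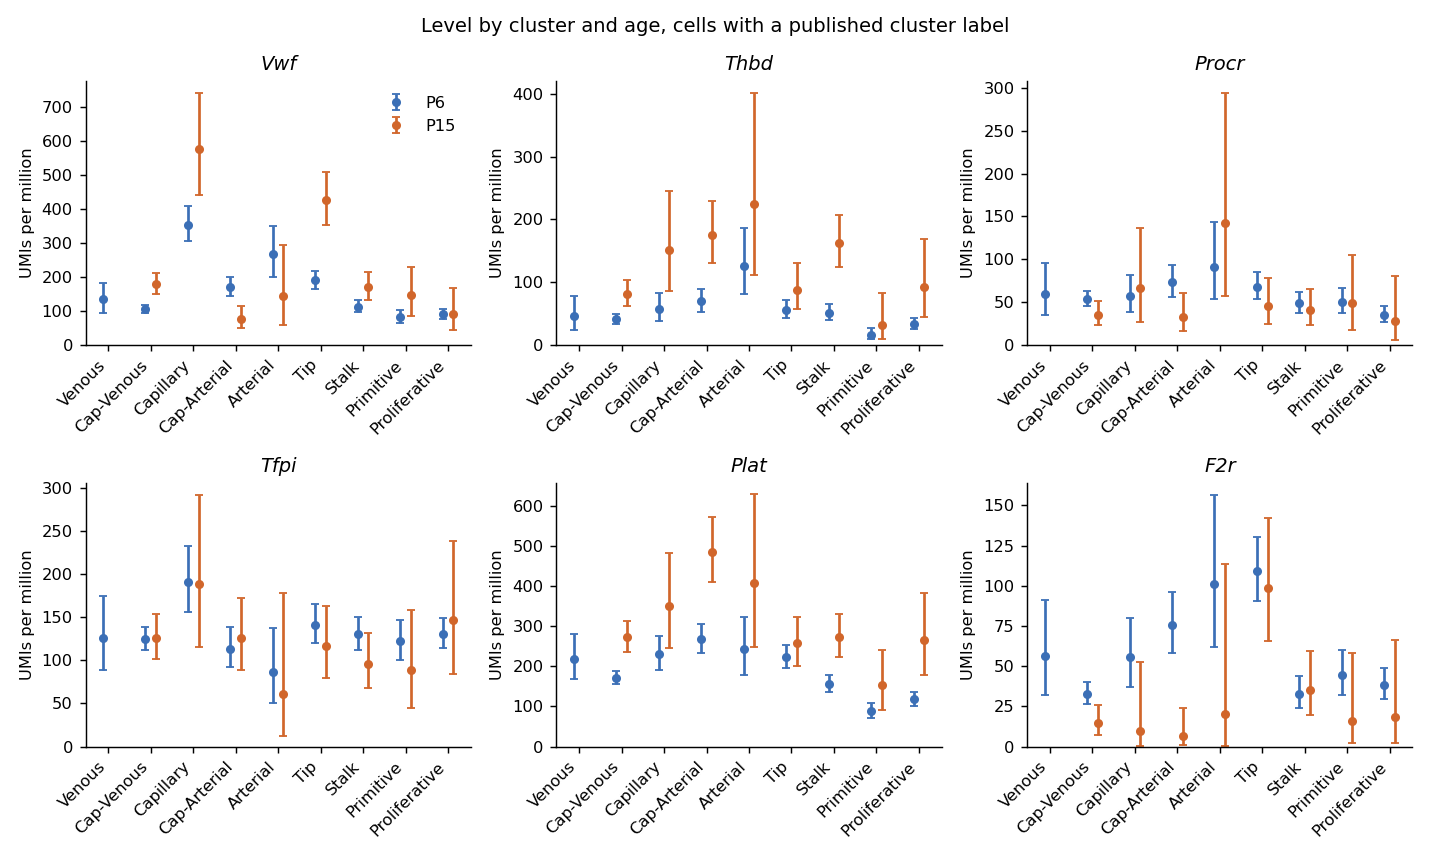
CPM of 6 genes in each published cluster (x axis), P6 in blue and P15 in orange, with 95% counting intervals. The P15 Venous cluster (2 labelled cells) is left out. *Vwf* is highest in Capillary cells at both ages and is lower at P15 than at P6 in Cap-Arterial cells, and *F2r* at P15 is highest in Tip cells.

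The *Cd63* criterion bears on *Vwf*. *Cd63* encodes a membrane protein of the Weibel-Palade body, the organelle that *Vwf* forms, and the criterion alone left out 109 P6 and 103 P15 barcodes that carried endothelial markers. These had 328 CPM of *Vwf* at P6 (286 to 375), which is 2.26 times the endothelial cells without *Cd63* (1.95 to 2.62), and 2.53 times when all cells were thinned to 3000 UMIs. At P15 they had 265 CPM, 1.15 times the cells without *Cd63* (0.967 to 1.36), and 1.33 times after thinning (1.03 to 1.69). *F2r* was also higher in them, at 105 CPM in P6 and 58.6 CPM in P15, although after thinning the P6 ratio was 1.45 with an interval that includes 1 (0.895 to 2.23). The other members had ratios whose intervals include 1 at either age. Pericyte markers were higher in these barcodes too, at 106 CPM against 7.60 at P6 and 1855 CPM against 223 at P15. Barcodes without a pericyte UMI (102 and 40 with *Cd63*) were compared as well. Among them *F2r* stood at 2.04 times the cells without *Cd63* at P6 (1.54 to 2.66) and 2.63 times at P15 (1.40 to 4.59). *Vwf* stood at 2.14 times (1.82 to 2.49) and 1.31 times (1.01 to 1.68). *Tfpi* in this subset was lower at P15, at 0.542 times (0.287 to 0.935), and not at P6, at 1.08 times (0.862 to 1.34). Adding the 109 and 103 barcodes to the passing cells gave a *Vwf* ratio between ages of 1.45 in place of 1.58.

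*Thbd* (chr2:148404466-148408188, minus strand), a gene without introns, stood above the other cells on the arterial side. At P6 it had 127 CPM in Arterial cells (81.9 to 187), where 1 cell held 9 of the 25 UMIs, and 69.4 CPM in Cap-Arterial cells, against 45.7 CPM in Venous cells, 41.3 CPM in Cap-Venous cells and 15.9 CPM in Primitive cells. Without that cell the Arterial ratio to the other cells was 1.88 in place of 2.87. A UMI was found in 10 of 40 Arterial, 43 of 162 Cap-Arterial and 12 of 42 Venous cells. After thinning these shares were 21.9%, 16.5% and 18.9%, with overlapping intervals. The share of P6 cells thus did not set the arterial side apart from Venous cells. At P15 it had 224 CPM in Arterial cells from 11 UMIs, 175 CPM in Cap-Arterial cells, 162 CPM in Stalk cells and 32.3 CPM in Primitive cells. With predicted labels, P15 Capillary cells had 220 CPM (164 to 289), beside 206 CPM in Arterial cells. Every one of the 8 clusters compared had more *Thbd* at P15 than at P6, and in 5 the interval excluded equality. In Stalk, the cells that follow the tip and form the lumen, the ratio was 3.16 (2.22 to 4.49), and in Capillary cells it was 2.64 (1.34 to 4.99). With predicted labels these were 2.11 (1.57 to 2.86) and 3.75 (2.37 to 6.02), so which cluster differed most depended on the labels. The P15 level of Stalk relative to the other cells did so too, at 1.56 times with published labels (1.16 to 2.09) and 0.964 times with predicted ones (0.789 to 1.17).

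*Procr* (chr2:155751117-155755471, plus strand) varied less. At P6 its levels ran from 35.2 CPM in Proliferative cells to 91.1 CPM in Arterial cells, and the intervals of Venous, Cap-Venous, Capillary, Stalk and Primitive cells overlapped. At P15 Arterial cells had 143 CPM from 7 UMIs in 11 cells, 3.64 times the other cells (1.42 to 7.84). Without the cell with most UMIs this ratio was 2.36, and with predicted labels it was 2.57. Cap-Arterial cells had 73.0 CPM at P6 and 33.0 CPM at P15, a ratio of 0.453 (0.207 to 0.890). In that cluster *Thbd* differed the other way, with a ratio of 2.52 (1.70 to 3.73). With predicted labels the Cap-Arterial ratio of *Procr* was 0.797 (0.560 to 1.14), and so its difference there depended on the labelled cells. Those labels instead put *Procr* lower at P15 beyond the interval in Cap-Venous cells, at 0.715 (0.557 to 0.917), and Tip cells, at 0.605 (0.405 to 0.894). *Procr* and *Thbd* were found together in 15 thinned P6 cells, where the product of their shares gives 20.7, and in 37 P15 cells, where it gives 36.3.

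*Tfpi* (chr2:84432855-84476775, minus strand) varied little over the clusters. At P6 it was highest in Capillary cells, at 191 CPM (156 to 233), and lowest in Arterial cells, at 86.0 CPM (50.1 to 138), with all other clusters between 114 and 141 CPM. At P15 these clusters had 189 and 61.1 CPM, the latter from 3 UMIs. With predicted labels P15 Capillary cells had 123 CPM, 1.11 times the other cells (0.739 to 1.61), and Arterial cells 55.6 CPM, 0.495 times (0.237 to 0.915). At P6 the Arterial ratio was 0.656, with an interval that includes 1 (0.381 to 1.06). No cluster with a published label differed between ages beyond the counting interval, and with predicted labels Capillary and Stalk cells were lower at P15, at ratios of 0.619 and 0.780.

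*Plat* (chr8:22757727-22782844, plus strand) was highest in Cap-Arterial cells at either age, at 268 CPM at P6 (234 to 305) and 486 CPM at P15 (410 to 571). Arterial cells followed with 243 and 407 CPM, and these intervals overlap. Primitive cells had 88.1 CPM at P6, the lowest level of that age, and 153 CPM at P15. With predicted labels they had 233 CPM at P15, 0.744 times the other cells in place of 0.496, which was not the lowest level of that age. All 8 clusters compared had more *Plat* at P15, 5 of them beyond the interval with published labels and 8 with predicted labels. The ratios ran from 1.15 in Tip cells (0.877 to 1.504) to 2.25 in Proliferative cells (1.47 to 3.33), where 1 of the 14 P15 cells held 13 of the 29 UMIs. With predicted labels the highest ratio was 2.65, in Primitive cells (1.97 to 3.57). Primitive cells held 2 of 6 members, *Thbd* and *Plat*, at no more than 0.5 times the other P6 cells, beside 27.4% of all genes.

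**Figure D3:**
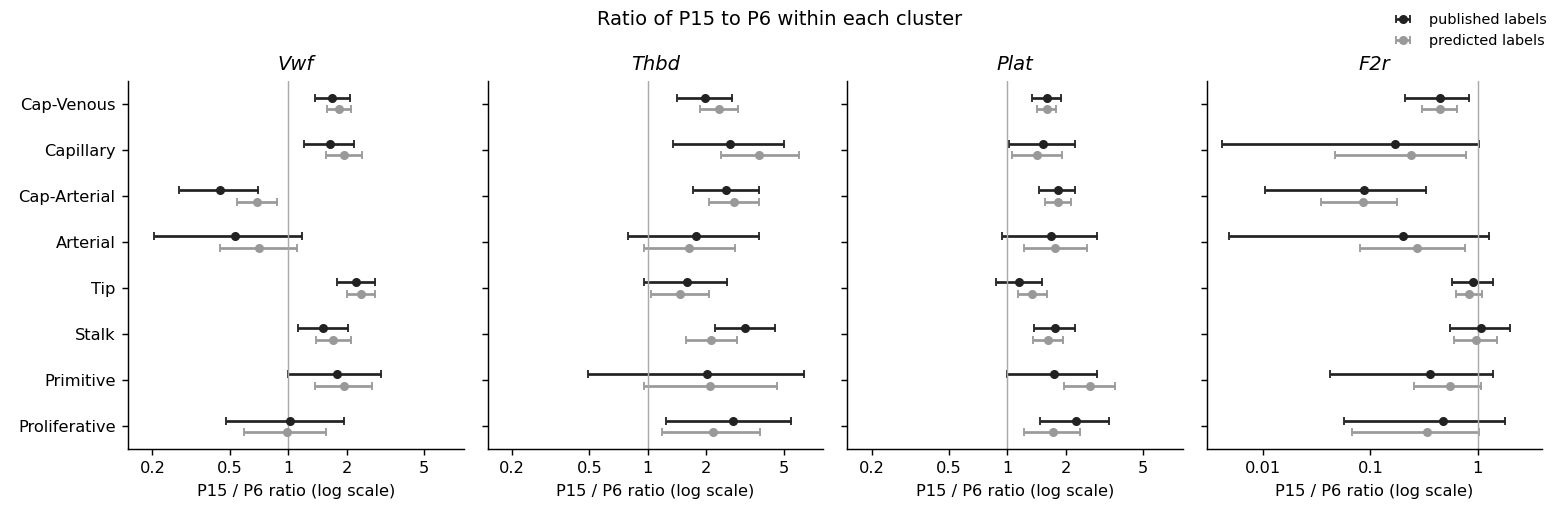
Ratio of P15 to P6 level (x axis, log scale) of *Vwf*, *Thbd*, *Plat* and *F2r* within 8 clusters, with published labels in black and predicted labels in grey and 95% counting intervals. *Thbd* and *Plat* lie to the right of 1 in each cluster, *Vwf* lies to the left in Cap-Arterial cells (0.447) and Arterial cells (0.532), and *F2r* is lowest in Cap-Arterial cells (0.0877).

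Pericytes, the mural cells of capillaries, were a second source of *Plat*, *Tfpi* and *F2r* in these libraries. In 42 P15 barcodes that carried pericyte markers and no UMI of *Pecam1* or *Cdh5*, *Plat* had 956 CPM (808 to 1124), *Tfpi* 462 CPM (361 to 582) and *F2r* 286 CPM (208 to 384), all above the passing cells. In the 5 such barcodes at P6 they had 508, 235 and 352 CPM. *Vwf*, *Thbd* and *Procr* had 45.5, 26.01 and 13.01 CPM in the P15 pericyte barcodes, below the passing cells. Retinal neuron barcodes, also chosen without a UMI of *Pecam1* or *Cdh5*, were used as a guide to free RNA. That rule tends to leave out barcodes with endothelial free RNA, so the background may be set too low. In 41 of them at P6 (median 3863 UMIs, against 4986 in passing cells), *Vwf* and *Thbd* had 0 UMIs, which allows up to 13.1 CPM and a share of up to 7.32% of barcodes, and *Plat* had 2 UMIs. *F2r* was found in 9.76% of these barcodes (2.72 to 23.1) and in 20.7% of passing P6 cells. Its level in them was 17.5 CPM (4.77 to 44.8), from 4 UMIs, and whether these were free RNA or the neurons' own was not tested. The upper end lies above the P6 levels of Cap-Venous and Stalk cells, at 32.7 and 32.8 CPM. At P15 the 6 such barcodes had 0 UMIs of *F2r*, which allows up to 208 CPM. The P15 background was thus not measured closely, and low P15 levels of *F2r* cannot be told from free RNA. The pericyte list in passing P15 cells stood at 1.20% of its level in the pericyte barcodes. At that share the pericyte barcodes' own RNA amounts to 11.5 CPM of *Plat*, 5.56 CPM of *Tfpi* and 3.45 CPM of *F2r*. Without the 489 P15 and 43 P6 cells that held a pericyte UMI, the ratio between ages was 1.68 for *Plat*, 0.821 for *Tfpi* and 0.489 for *F2r*.

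**Figure D4:**
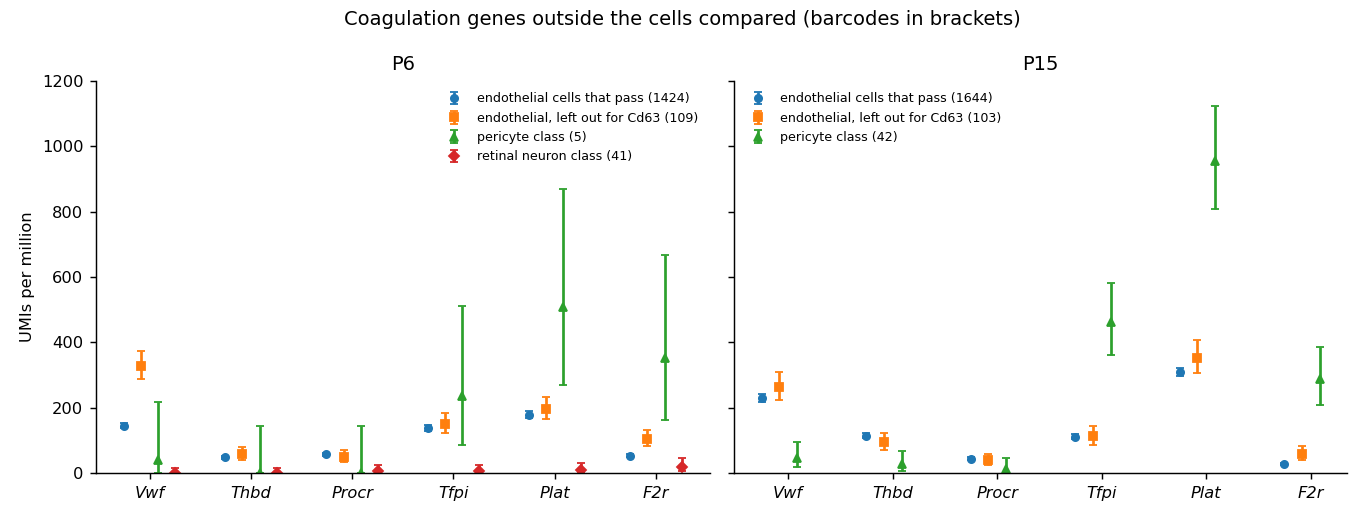
CPM of 6 genes in passing endothelial cells, in endothelial barcodes left out for *Cd63*, in pericyte barcodes and, at P6, in retinal neuron barcodes, with 95% counting intervals. *Plat* and *Tfpi* are highest in the P15 pericyte barcodes (956 and 462), and *Vwf* in the barcodes with *Cd63* at P6 (328). *F2r* is highest in pericyte barcodes at either age (352 from 5 barcodes at P6, 286 at P15).

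*F2r* (chr13:95601803-95618487, minus strand) was lower at P15 in some clusters and not in others. At P6 it was highest in Tip cells, at 109 CPM (90.5 to 130), and Arterial cells, at 101 CPM (61.8 to 156), intervals that overlap. Cap-Arterial cells had 75.4 CPM, and Cap-Venous and Stalk cells were lowest, at 32.7 and 32.8 CPM. At P15 Tip cells kept 98.5 CPM (65.5 to 142) and stood 5.54 times above the other labelled cells (3.23 to 9.46), whereas Cap-Arterial cells had 6.61 CPM, from 2 UMIs in 68 cells. In Cap-Arterial cells the ratio between ages was 0.0877 (0.0104 to 0.330), and in Tip cells it was 0.904 (0.577 to 1.37). Predicted labels gave 0.0846 (0.0350 to 0.177) and 0.826 (0.623 to 1.09). *F2r* was the only member at least 2-fold higher in Tip cells at P6, where 1.85% of all genes were, and at P15 it was joined by *Vwf*, where 2.49% were. In P15 Cap-Arterial cells *Vwf* and *F2r* were at least 2-fold lower than in the other cells, beside 5.04% of all genes. The P6 Arterial value depended on depth, at 1.21 times the other cells after thinning in place of 2.04.

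Of the members that were lower at P15, *F2r*, *Tfpi* and *Procr* have a promoter in the RefSeq set used here (GRCm38.p6), as does *F8*, and *Vwf*, *Thbd* and *Plat* have none there. The stretches before the start of the annotated gene are shown because these genes were lower at P15 over the passing cells. Over the 9 P6 clusters they did not all go together. Pearson r of log2(CPM + 1) was 0.815 for *Procr* and *F2r*, -0.444 for *Procr* and *Tfpi* and -0.269 for *Tfpi* and *F2r*. Capitals mark the boxes CACCC or GGGTG (bound by Kruppel-like factors such as KLF2) and the cores GGAA or TTCC (bound by ETS factors such as ERG). The motifs were found on either strand and without overlap between them. *F2r* lies at chr13:95618488-95618716, *Tfpi* at chr2:84476776-84477009 and *Procr* at chr2:155750967-155751116, and each is written 5′ to 3′ on the strand of its gene.
F2r: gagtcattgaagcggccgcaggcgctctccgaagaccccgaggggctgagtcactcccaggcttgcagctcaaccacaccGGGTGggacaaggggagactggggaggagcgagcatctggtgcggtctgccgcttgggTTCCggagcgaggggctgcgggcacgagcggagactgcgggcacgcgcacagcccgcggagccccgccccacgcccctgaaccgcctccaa
Tfpi: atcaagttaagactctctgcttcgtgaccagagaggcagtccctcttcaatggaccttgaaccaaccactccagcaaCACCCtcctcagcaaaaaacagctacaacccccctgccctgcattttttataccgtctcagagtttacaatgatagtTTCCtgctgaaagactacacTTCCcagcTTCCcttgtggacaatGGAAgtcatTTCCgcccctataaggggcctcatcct
Procr: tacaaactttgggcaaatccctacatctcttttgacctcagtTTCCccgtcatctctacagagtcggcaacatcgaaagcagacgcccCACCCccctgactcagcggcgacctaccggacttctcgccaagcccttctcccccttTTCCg
Each stretch holds 1 CACCC box, which 49.1%, 49.8% and 35.2% of all 32851 promoters hold in the same stretch. *F2r* has 1 GGAA core, *Tfpi* 5 and *Procr* 2, and 91.8%, 92.2% and 81.7% of promoters have at least 1. A CACCC box or at least 1 core is thus common among promoters, and the share with as many as 2 or 5 cores was not counted. The matches describe the letters alone.

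*Klf2*, which encodes a flow-responsive factor that is known to induce *Thbd*, had 581 CPM at P6 and 2019 CPM at P15. Cells were grouped, after the data were seen, by their *Klf2* UMIs once thinned to 3000. In cells with 5 or more *Klf2* UMIs *Thbd* stood at 97.6 CPM at P6 (72.0 to 129) and 140 CPM at P15 (123 to 158). In cells with 0 it stood at 41.7 CPM (32.6 to 52.7) and 72.7 CPM (46.6 to 108). Within the 3 groups the ratio of P15 to P6 for *Thbd* was 1.43 to 2.22. *Klf2* itself was not equal between the ages inside a group, at 622 and 804 CPM in cells with 1 to 4 UMIs and 2492 and 3350 CPM in cells with 5 or more, and its part in the differences between ages was not tested. *F2r* at P6 ran from 46.4 to 58.9 CPM over the groups, with overlapping intervals. At P15 it had 72.7 CPM in cells without a *Klf2* UMI (46.6 to 108), 38.9 CPM in cells with 1 to 4, and 11.7 CPM in cells with 5 or more (7.35 to 17.8). Without cells predicted as Tip, the P15 levels were 47.0, 23.7 and 10.7 CPM. *Vwf* at P15 showed the same order, from 303 CPM without *Klf2* to 168 CPM with 5 or more, while at P6 the levels were 124 and 155 CPM. Without Tip cells the P15 levels of *Vwf* were 207 CPM (150 to 277), 177 CPM and 159 CPM (141 to 179), with overlapping intervals. *Plat* at P15 had 291, 270 and 341 CPM.

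**Figure D5:**
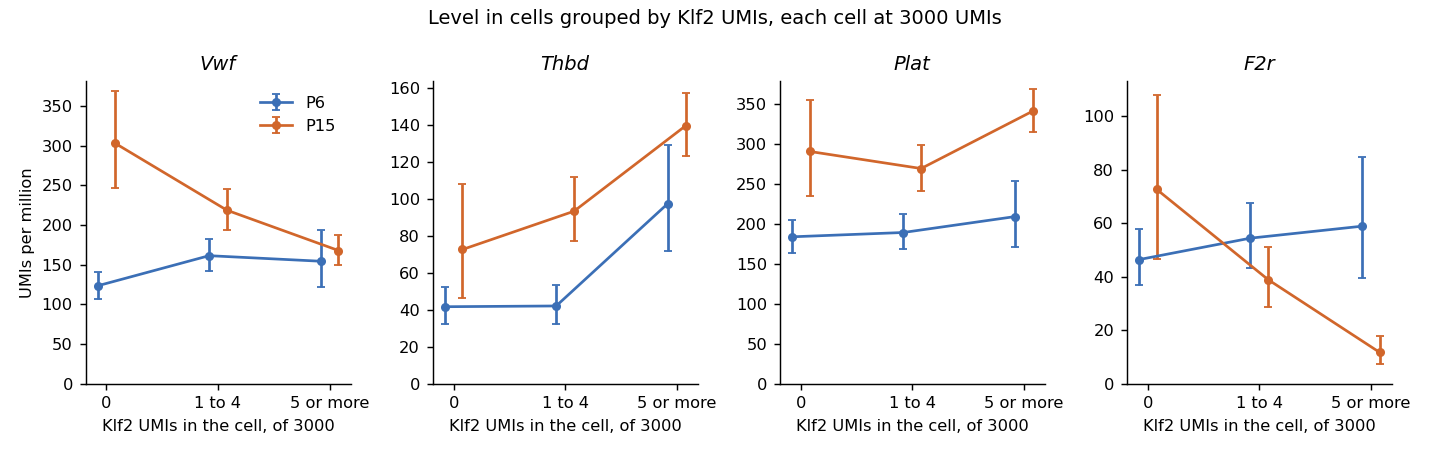
CPM of 4 genes (y axis) in cells grouped by *Klf2* UMIs after thinning each cell to 3000 UMIs (x axis), P6 in blue and P15 in orange, with 95% counting intervals. *Thbd* is higher in cells with 5 or more *Klf2* UMIs at both ages, and *F2r* at P15 is lower, at 11.7 against 72.7 in cells with 0.

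Immediate early genes moved with age as well, and differed between cells of 1 library. In cells with 1 to 4 UMIs of these genes at either age (752 and 382 cells), the ratio of P15 to P6 was 1.82 for *Thbd* (1.36 to 2.42), 1.52 for *Plat* (1.31 to 1.76), 1.74 for *Vwf* (1.47 to 2.05) and 0.416 for *F2r* (0.262 to 0.639). For *Procr* it was 0.791 (0.542 to 1.14) and for *Tfpi* 0.916 (0.741 to 1.13), intervals that include 1. In cells with 0 such UMIs *F2r* had 41.3 CPM at P6 and 64.5 CPM at P15, from 41 and 12 UMIs. The part of these genes in the differences between ages was not tested beyond these values.

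*F8* (chrX:75172715-75382615, minus strand) was close to absent. It had 9 UMIs in 7 passing P6 cells and 5 UMIs in 5 passing P15 cells, which is 1.18 CPM (0.538 to 2.23) and 0.678 CPM (0.220 to 1.58). Of the 12 UMIs in labelled P6 cells, 3 were in Arterial cells and 4 in Cap-Venous cells. The annotation marks its locus as overlapping other genes, so that these few UMIs are uncertain. A retinal neuron barcode held 1 UMI as well, and no difference between ages was detectable at this depth. *Lman1* and *Mcfd2*, which form the receptor that carries factor VIII out of the endoplasmic reticulum, were detected at 84.5 and 61.3 CPM at P6 and at 95.1 and 100.4 CPM at P15.

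The wider pathway was described by a list of 56 further genes, of which 28 had at least 50 UMIs in the passing cells. Of these, 4 were at least 2-fold higher at P15 and 3 at least 2-fold lower, where 7.24% and 5.79% of 10977 genes were. The higher ones were *Hs3st1*, *Edn1* and the transcription factors *Klf2* and *Klf4*, and the lower ones *F10*, *F2rl3* and *Mmrn1*. The median ratio was 1.14, beside 1.09 over all genes. Liver genes such as the fibrinogen chains (*Fga*, *Fgb*, *Fgg*), *Plg* and *Proc* had no row in either table, and *F3*, the tissue factor that starts clotting, had 0 UMIs in the passing P6 cells and no row at P15. Among anticoagulants, *Pros1*, the cofactor of activated protein C, had 73.9 CPM at P6 and 117 CPM at P15, and *Hs3st1*, which makes the heparan sulfate that binds antithrombin, had 21.6 and 49.2 CPM. *Tfpi2* had 14.4 and 9.36 CPM. Among clotting factors *F10* had 5.75 and 1.76 CPM and *F2* 5.88 and 3.39 CPM. In fibrinolysis *Anxa2*, a surface receptor for plasminogen and its activator, had 648 and 581 CPM. *F2rl3*, the thrombin receptor PAR4, had 7.32 and 3.26 CPM, lower at P15 like *F2r*.

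Proteins stored with or bound to Vwf did not share 1 direction. *Edn1* (endothelin) had 28.5 CPM at P6 and 163 CPM at P15, *Angpt2* 19.0 and 33.0 CPM, and *Mmrn1* (multimerin) 15.8 and 2.31 CPM. Among genes that inhibit platelets, *Nos3* had 55.8 and 92.6 CPM, *Entpd1* 67.3 and 84.0 CPM, and *Ptgis*, the prostacyclin synthase, 132 and 76.1 CPM. The factors *Klf2*, *Klf4* and *Erg* had ratios of 3.47, 3.17 and 1.77.

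By cluster, Arterial cells at P6 held 3 of 6 members (*Vwf*, *Thbd* and *F2r*) and 9 of 28 listed genes at 2 or more times the other cells, beside 12.1% of all genes. Without the cell with most UMIs of the gene, each of these 3 members was below that limit. The ratios were then 1.76 for *Vwf*, 1.88 for *Thbd* and 1.69 for *F2r*. After thinning *F2r* was below it as well, at 1.21. Among the listed genes were *Hs3st1* at 111 CPM, *Edn1* at 147 CPM and *Entpd1*, which degrades the platelet agonist ADP, at 238 CPM. Tip cells at P6 held 4 of 28 listed genes past that limit, beside 1.85% of all genes. The 5 genes *F2* (1 UMI), *Hs3st1*, *Edn1*, *Klf2* and *Klf4* were at no more than 0.5 times the other P6 cells, beside 5.08% of all genes. Among the higher ones the urokinase receptor *Plaur* had 105 CPM at P6 and 130 CPM at P15 in Tip cells, and *Angpt2* 103 and 130 CPM. Primitive cells held 12 of 28 listed genes at no more than 0.5 times the other P6 cells, beside 27.4% of all genes. Among the 12 was *Klf2*, at 245 CPM.

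Each member's closest genes over the 9 P6 clusters, by Pearson r of log2(CPM + 1) among genes with at least 200 UMIs, were as follows. For *Thbd* they were *Mecom* (0.986), *Dpm1* (0.978) and *Ammecr1* (0.977), and over the 6 P15 clusters of at least 30 labelled cells *Mecom* had 0.909, *Dpm1* 0.930 and *Ammecr1* -0.33. For *Vwf* they were *Cd81* (0.959), *Mmp14* (0.957) and *Ufsp2* (0.944), with 0.948 for *Mmp14* but -0.64 for *Cd81* at P15. *F2r* was closest to *Wdr1* (0.958), *Rhoc* (0.911) and *Igfbp3* (0.906), which had 0.670, 0.579 and 0.0508 at P15. The genes closest to *Procr* (*Tex264*, *Snn* and *Nradd*, 0.960 to 0.978) had negative values at P15. Those closest to *Plat* (*Znrf1*, *Tmbim6*, *Yipf3*) and *Tfpi* (*Kcnj2*, *Lamb1*, *Flna*) had 0.236 to 0.581 there. Between members, *Thbd* and *Plat* were alike at both ages (0.866 and 0.890). *Vwf* and *Thbd* had 0.757 at P6 and 0.0441 at P15. With 9 or 6 points these values are descriptions, and clusters of a library share its depth and free RNA.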

How the data were processed

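UMI counts per gene and cell barcode of 1 P6 and 1 P15 library of sorted retinal endothelial cells were analysed. The authors deposited raw counts without normalization; the labels name mm10 and Seurat 3.0, and the aligner, counter and annotation of these counts are not given in the sources used here. Total UMIs were 13958124 at P6 and 11589641 at P15. The members and lists were chosen with earlier results of these data known.

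Cells passing the study's exclusion criteria, with its limit on RNA counts read as genes, were compared between ages and cells with a published cluster label between clusters. The copy of the labels used here is complete for P6 and partial for P15. UMIs were summed and divided by the summed total (CPM). Intervals (95%) are exact Poisson for levels, Clopper-Pearson for shares and, for ratios, conditional on the summed UMIs (binomial), and 0 UMIs were taken to allow up to 3. Genes with at least 50 UMIs were called past a fold of 2. Labels of unlabelled passing cells were predicted from 15 neighbours on 13 principal components of 3078 variable genes, with 5-fold cross-validation. Other cell types were barcodes with at least 5 UMIs and 3 genes of a marker list that exceeded all other lists. No doublet caller was run, and an alternative left out cells holding UMIs of *Xist* together with Y-linked genes. The named genes are the members, listed genes past the fold or with the most UMIs of their role, and the 3 genes most like each member with at least 200 UMIs. Coordinates are from GENCODE M21 (GRCm38) and promoters from RefSeq (GRCm38.p6), 4 of 7 members matched. The ratio step was tested on simulated data. Python 3.11.15, numpy 2.4.6, scipy 1.17.1 and pandas 2.3.3 were used. Alternatives were the cells kept, thinning, scaling, equal weight per cell, leaving out the top cell, a fixed mix of clusters and other UMI limits. Leaving out cells with pericyte UMIs, taking cells with 1 to 4 immediate early UMIs, dropping the upper limit on genes and adding the endothelial barcodes left out for *Cd63* were chosen after seeing the data. Values of 1 listed gene are not reported here.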

Additional observations from a re-analysis of the deposited data

Results flagged for a closer look

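*Vwf* in Cap-Arterial cells differed from the other labelled cells in opposite directions at the 2 ages, with a ratio of 1.29 at P6 and 0.332 at P15. Between ages, its ratio of 0.447 in Cap-Arterial cells was opposite to the 5 clusters with more *Vwf* at P15. *F2r* in Cap-Arterial cells was 1.56 times the other cells at P6 and 0.206 times at P15, the latter from 2 UMIs. None of these differences could be tested with 1 library per age.

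Signal also lay in barcodes that the comparisons did not use. Pericyte barcodes without *Pecam1* or *Cdh5* had more *Plat* (508 CPM at P6 and 956 CPM at P15) and *F2r* (352 and 286 CPM) than the passing cells, and at P15 more *Tfpi* (462 CPM). Endothelial barcodes left out for *Cd63* had more *Vwf* at P6 (328 CPM) and more *F2r* at both ages (105 and 58.6 CPM), where pericyte markers were also higher (106 against 7.60 CPM and 1855 against 223 CPM) and the thinned P6 ratio of *F2r* had an interval that includes 1.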

How the results depend on the processing

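No paired analysis was possible because each age is 1 library. Of 91 values of the 7 ratios between ages, 75 stayed within the counting interval of the reported ratio. The other 16 kept their direction, except 1 value of *F8*, whose reported interval includes no difference. *Vwf* (1.58) came to 1.43 without the *Cd63* criterion, 1.45 with the endothelial barcodes left out for *Cd63*, 1.80 without the upper limit on genes, 1.39 after thinning to 3000 UMIs and 1.45 under median of ratios scaling. *Plat* (1.74) came to 1.93 over every barcode, 1.59 under that scaling and 1.62 with the P6 mix of clusters. *Tfpi* (0.809) came to 0.929 over every barcode and 0.919 over labelled cells. In cells with 1 to 4 immediate early UMIs the ratios were 1.74 for *Vwf*, 1.82 for *Thbd*, 0.916 for *Tfpi*, 1.52 for *Plat*, 0.416 for *F2r* and 1.97 for *F8* (reported 0.576), the last from 1 UMI an age.

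Of 133 values of 19 cluster ratios, 130 stayed within the interval. Thinning gave 2.46 for *Vwf* in P6 Capillary cells (reported 2.90) and 1.21 for *F2r* in P6 Arterial cells (2.04). The ratio of *F2r* in P15 Capillary cells rests on 1 UMI and was 0 without that cell. With at least 200 UMIs per gene, 0 listed genes were 2-fold lower at P15 (reported 3), 2 were higher in P6 Tip cells (4) and 0 in P6 Capillary cells (1). The causes were not tested. Shares after thinning were lower for each of the 7 members at both ages, for *F8* within the interval. Depth limits *F8*, the P15 Venous, Arterial and Proliferative cells (2, 11 and 14 labelled), and *F2r* at P15.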

Other observations

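Pairs of members occurred in the same thinned cell about as often as the product of their shares gives. Over 15 pairs, observed over expected cells ran from 0.723 (*Thbd* and *Procr*) to 1.29 (*Vwf* and *Procr*) at P6, and from 0.781 (*Thbd* and *Tfpi*) to 1.41 (*Vwf* and *F2r*) at P15. *Thbd* and *Tfpi* were found together in 63 P6 cells, where the product gives 49.1, and in 69 P15 cells, where it gives 88.3. Counts of *Vwf* per thinned cell had a variance of 1.66 times the mean at P6 and 1.49 times at P15, and the richest passing cells held 9 and 14 UMIs. For *Tfpi* the variance was 0.997 and 1.06 times the mean, and for *Plat* 1.21 and 1.59 times.

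Endothelial barcodes with more than 3500 genes, which the limit as read here leaves out, numbered 253 at P6 and 148 at P15. In them *Vwf* had 96.2 CPM at P6 and 242 CPM at P15, and *Thbd* had 32.7 and 108 CPM.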
